A study of Sus scrofa with 16 samples.

Results

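FOS, FOSB, JUN, JUNB, EGR1, ATF3, IER2 and DUSP1 are immediate early genes, and they were followed across pituitary libraries of Puławska gilts that differed in feed conversion, which is the amount of feed needed for each unit of weight gained. The set was chosen by gene symbol, and all 8 had a row among the 25880 genes of the count table. The low feed conversion group (LFC) held 8 gilts, numbered 1 to 8, and the high feed conversion group (HFC) held 8, numbered 9 to 16, all females of the native Puławska breed. The labels name no engineered allele and no drug treatment. Their age is 3 months in the labels but higher in the methods of the study. The same source says that the gilts were unrelated, came from several farms, were kept under the same conditions at a test station, and gave a whole pituitary soon after slaughter. The p-values given here therefore measure the spread between gilts. In the study the test ended at a set body weight, and HFC gilts spent more days on test than LFC gilts. The time from slaughter to collection is given there only as an upper limit, in minutes. Neither was part of the comparison. The labels' extraction text speaks of fat samples, but the libraries held the transcripts of pituitary hormones. The median of GH1, which encodes growth hormone, was 43318 CPM (counts scaled to a library of 1 M) in LFC and 44142 CPM in HFC, and that of CGA, which encodes the alpha subunit of the glycoprotein hormones, was 23045 and 17435 CPM.

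Immediate early genes are switched on within minutes of a stimulus, before any new protein has to be made, because the factors that bind their promoters (SRF with its partners, and CREB) are already in place and only have to be phosphorylated. Most encode transcription factors that pass the stimulus on to later genes, and some encode feedback proteins that end the signal. Their transcripts are short-lived. In the pituitary they respond to hypothalamic releasing hormones through cAMP, calcium and MAP kinases, and in tissue taken at slaughter they also record stress, blood loss and handling, so a level in 1 gland is a snapshot of its last period of stimulation. A bulk library cannot tell fewer cells of a type from less RNA per cell.

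Depth was 13.998 to 23.06 M counts per library in LFC (median 18.8 M) and 10.97 to 19.3 M in HFC (median 15.3 M). On the first principal component of log2 CPM, which held 41.8% of the variance, 3 libraries lay apart: LFC 5 at 126, HFC 13 at 75.1 and HFC 14 at 56.6, with the others between -53.41 and 11.3. LFC 5 had the highest summed level of the markers of endothelium (5 genes, 309 CPM), smooth muscle and pericytes (5 genes, 274 CPM), macrophages and microglia (6 genes, 512 CPM) and erythrocytes (2 genes, 1273 CPM). HFC 14 held transcripts of skeletal muscle, which are described with ATF3. HFC 16 had the lowest summed level of 8 markers of anterior endocrine cells (14373 CPM, against 30998 to 169737 CPM elsewhere) and the highest of 2 intermediate lobe markers (2928 CPM, against at most 330.2 CPM elsewhere). The groups also differed in the medians of these marker sums, with overlapping ranges. The 8 anterior endocrine markers had 52854 to 166421 CPM in LFC (median 129153) and 14373 to 169737 CPM in HFC (median 79503), and PRL, which encodes prolactin, had medians of 27967 and 6225 CPM. The 2 intermediate lobe markers had medians of 5.90 CPM in LFC and 79.3 CPM in HFC, and the 4 markers of pituicytes and astroglia 31.997 and 56.5 CPM. The sums hold only markers found by symbol, 8 of 10 listed for the anterior and 2 of 3 for the intermediate lobe. POMC, which encodes the precursor of corticotropin, was on both lists but added at most 2.47 CPM in LFC 5. The sums therefore do not measure all hormone RNA, and the study reported higher POMC in HFC Puławska gilts. The part of cell makeup in the values of the immediate early genes was not tested.

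The comparison of HFC with LFC asked whether the transcripts of the gland differed with feed conversion. The counts were fitted with edgeR's quasi-likelihood test over the 14319 genes that passed a filter on low counts, and calls needed both an adjusted p (Benjamini-Hochberg) no higher than 0.05 and a change of 1.3-fold or more. Of the 8 immediate early genes, 7 passed the filter and 0 were called, against 0% of all genes tested (0 of 14319, smallest adjusted p 0.612, and 834 genes with an unadjusted p under 0.05). DESeq2 called 20 of 19572 genes, or 5 when run on the same 14319, and no immediate early gene in either run. Of the 7, 6 had a higher fitted level in HFC and 1 a lower one, against 48.4% of all genes on the higher side. Their median log2 fold change was 0.18, against -0.0077 over all genes. Both values rest on few libraries: without HFC 14, 5 of 7 were higher with a median of 0.096, and without HFC 12, 4 of 7 were higher with a median of 0.17. Over all fits that left out 1 library, the median ran from 0.096 to 0.26. Only ATF3 had an unadjusted p under 0.05, as had 5.82% of all genes.

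**Figure D1:**
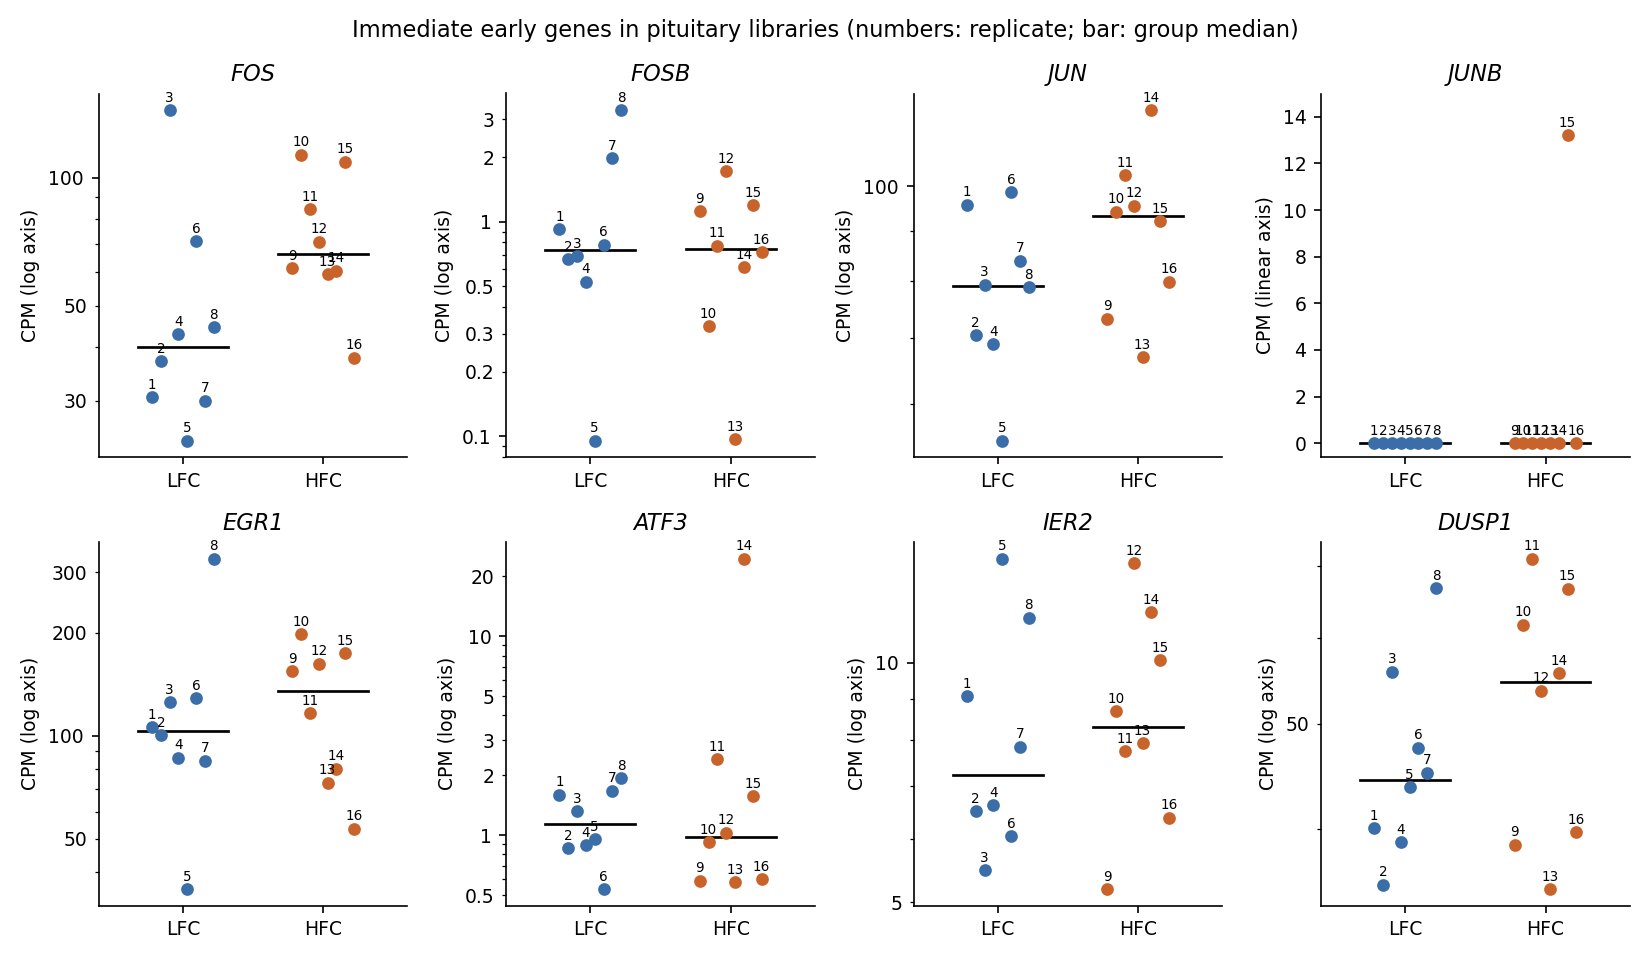
CPM of each immediate early gene in every library, LFC in blue and HFC in orange, with the replicate number above each point and a bar at the group median (log axes, except for JUNB on a linear axis). The groups overlapped for each of the 7 genes with reads in all libraries, and FOS had the clearest shift, with 7 of 8 HFC libraries at or above 59.4 CPM and 6 of 8 LFC libraries at or below 44.6 CPM.

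FOS, FOSB, JUN and JUNB encode subunits of AP-1, the dimeric factor made of 1 FOS and 1 JUN protein, or of 2 JUN proteins. FOS (ENSSSCG00000002383, Sscrofa11.1 chr7:98449508-98453576) is the subunit whose transcript is most widely used as a mark of recent stimulation. In LFC its lowest, median and highest levels were 24.2, 40.0 and 144 CPM, and in HFC 37.8, 66.0 and 113 CPM. The highest of all 16 libraries was thus an LFC library, LFC 3, while the next highest LFC library, LFC 6, stood at 70.9 CPM. In HFC 7 of 8 libraries were above the LFC mean of log2 CPM, and HFC 16 was the exception. On the log2 CPM scale the mean was 5.49 ± 0.83 in LFC, against 6.14 ± 0.52 in HFC (n = 8 each, SD).

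The difference in FOS did not pass either test. edgeR gave a log2 fold change of 0.49 ± 0.34 (SE, adjusted p = 1). The difference in mean log2 CPM was 0.65 (exact permutation test over all ways to draw 8 of the 16 libraries, two-sided p = 0.0777). A single library weighed on this value: without LFC 3 the difference was 0.90 (exact permutation p = 0.0059), and without HFC 16 it was 0.78 (exact permutation p = 0.0423). These are the highest LFC and the lowest HFC library, so leaving either out widens the difference. No other single omission gave an exact permutation p under 0.05, and the difference fell as low as 0.53. The edgeR fold change ranged from 0.37 to 0.89 on the log2 scale when each library was left out in turn, always higher in HFC, and its adjusted p passed the threshold in none of those fits.

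FOSB (ENSSSCG00000031616, RefSeq span Sscrofa11.1 chr6:51836780-51844531) encodes the other FOS protein of the set. It was sparse, with 1 to 65 reads per library. The lowest, median and highest levels were 0.095, 0.738 and 3.32 CPM in LFC and 0.097, 0.748 and 1.72 CPM in HFC, so the medians were nearly the same and the groups overlapped. The libraries with 1 read were LFC 5 and HFC 13, both apart on the first principal component, and the highest were LFC 8 (65 reads) and LFC 7 (45 reads). In edgeR it had a log2 fold change of -0.46 ± 0.53 (SE, adjusted p = 1), and the difference in mean log2 CPM was -0.24 (exact permutation p = 0.665). LFC 8 carried much of the fold change: the values without each library in turn ran from -0.70 to -0.012, the latter without LFC 8.

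JUN (ENSSSCG00000031912, chr6:153685682-153687639) encodes the AP-1 subunit that pairs with FOS. Its levels were steady. The lowest, median and highest were 55.0, 79.1 and 98.7 CPM in LFC and 66.9, 93.2 and 119.6 CPM in HFC. LFC 5 was the lowest library and HFC 14 the highest, and 6 of 8 HFC libraries were above the LFC mean of log2 CPM. For JUN edgeR gave a log2 fold change of 0.20 ± 0.14 (SE, adjusted p = 1) and the means of log2 CPM lay 0.20 apart (exact permutation p = 0.166), with the fold change between 0.13 and 0.25 when each library was left out.

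JUNB (ENSSSCG00000013735) encodes a JUN protein that often acts against JUN itself. It had no read in 15 of 16 libraries and 210 reads in HFC 15 (exact Poisson 95% interval 183 to 240.4, for counting error only), which is 13.2 CPM. If 3 reads are taken as the limit for a count of 0, that limit is 0.124 to 0.307 CPM depending on the library. The row in HFC 15 stood 43.0-fold above the highest of these limits. This fold uses the 210 reads without their interval, and it compares rows of counts, not JUNB transcript. It did not pass the filter on low counts, since it was present in 1 library only. Among all genes, 7 had at least 100 reads in 1 library and none in the other 15: 5 of them in HFC 14, 1 in LFC 5, and JUNB in HFC 15.

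The position of JUNB limits what its row can hold. The RefSeq span of JUNB in Sscrofa11.1 is chr2:66214086-66219435, and all 5350 bases of it lie inside the span that the deposited files give for HOOK2 (chr2:66213823-66239669), while 1932 bases also lie inside that of PRDX2 (chr2:66207880-66216017). The RefSeq spans of HOOK2 and PRDX2 do not reach JUNB. The libraries keep no strand, so reads in the overlaps could be given to any of these genes. HOOK2, which encodes an adaptor that links cargo to microtubule motors, ranged from 30.2 to 58.0 CPM and had 41.5 CPM in HFC 15. PRDX2, which encodes a peroxidase, ranged from 309 to 1233 CPM. Neither stood apart in HFC 15. How reads were divided between these rows was not tested, and a row at 0 is no measure of JUNB transcript here.

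EGR1 (ENSSSCG00000014336, chr2:140441491-140471827) encodes a zinc finger factor that, in gonadotrophs, drives the LHB promoter in answer to gonadotropin-releasing hormone. It had the widest range of the well-expressed members, 9.25-fold between the lowest and the highest library. The lowest, median and highest levels were 35.6, 103 and 329 CPM in LFC and 53.4, 135 and 197 CPM in HFC. Both extremes of the 16 libraries were LFC libraries, LFC 5 and LFC 8, and the HFC libraries lay between them. In the edgeR fit its log2 fold change came to 0.02 ± 0.36 (SE, adjusted p = 1), and the difference in mean log2 CPM was 0.14 (exact permutation p = 0.736). The direction depended on single libraries: without each in turn the log2 fold change ran from -0.12 to 0.40, its lowest value coming without LFC 5 and its highest without LFC 8. The span of the EGR1 row is 30337 bases, against 4474 in RefSeq, and it shares 2513 bases with ETF1, which encodes a translation termination factor. ETF1 varied little, between 70.04 and 102 CPM, beside the wide range of EGR1. Its lowest and highest libraries were LFC 5 and LFC 8, the same as for EGR1. How reads were divided between these rows was not tested.

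ATF3 (ENSSSCG00000015595, chr9:130772262-130785599) encodes a factor of the ATF and CREB family that is induced by stress and injury in most tissues. Its level was low, with 6 to 50 reads in 15 libraries and 240 reads in HFC 14. The lowest, median and highest levels were 0.535, 1.14 and 1.94 CPM in LFC and 0.579, 0.977 and 24.6 CPM in HFC. The HFC median was therefore below the LFC median, and 1 library carried the mean. The log2 fold change was 1.69 ± 0.76 (SE, edgeR unadjusted p = 0.0407, adjusted p = 0.838), and without HFC 14 it was -0.13. DESeq2, which by default replaces counts that lie far from the rest of their group, also gave -0.13. The difference in mean log2 CPM was 0.36 (exact permutation p = 0.733), and without HFC 14 it was -0.21 (exact permutation p = 0.536).

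HFC 14 stood apart in other transcripts as well. ACTA1, which encodes skeletal alpha actin, had 17514 CPM there and at most 9.26 CPM in the other 15 libraries. CKM, the muscle creatine kinase, had 3983 CPM there and at most 2.95 CPM elsewhere, and the values were 7608 and at most 1.91 CPM for TNNT3, a fast troponin. The summed level of 10 skeletal muscle genes was 56669 CPM in HFC 14, 8.58 to 26.1 CPM in LFC and 10.6 to 25.2 CPM in the other HFC libraries. These muscle genes were chosen after the values were seen. The highest JUN level also lay in HFC 14, at 119.6 CPM, and IER2 was the third highest there at 11.6 CPM, while FOS at 60.5 CPM and EGR1 at 80.1 CPM lay within their ranges. The part of the muscle transcripts in these levels was not tested.

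**Figure D2:**
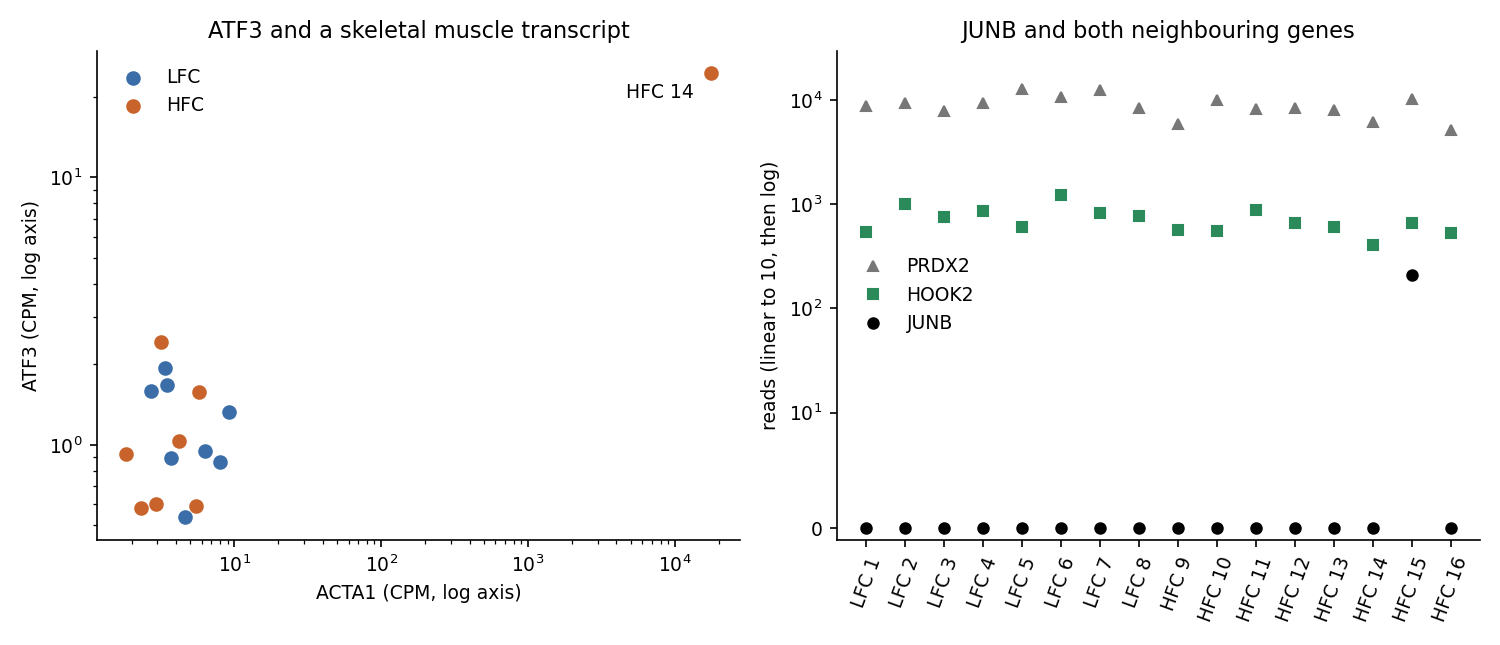
Left, ATF3 against ACTA1 in CPM, 1 point per library on log axes: HFC 14 lies alone at 24.6 CPM of ATF3 and 17514 CPM of ACTA1. Right, reads of JUNB and of its neighbours HOOK2 and PRDX2 in each library: JUNB is at 0 except for 210 reads in HFC 15, where both neighbours lie within their range over the other libraries.

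IER2 (ENSSSCG00000013753, chr2:65910620-65911285) encodes a small nuclear protein that is induced together with FOS in many cells. The lowest, median and highest levels were 5.48, 7.23 and 13.5 CPM in LFC and 5.19, 8.30 and 13.3 CPM in HFC. These ranges are nearly the same. In the edgeR fit the change was 0.09 ± 0.23 on the log2 scale (SE, adjusted p = 1), and -0.015 without HFC 12. The difference in mean log2 CPM was 0.10 (exact permutation p = 0.657). Its row spans 666 bases, against 2854 in RefSeq.

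DUSP1 (ENSSSCG00000016991, chr16:51458262-51463541) encodes a nuclear phosphatase that removes the activating phosphates from MAP kinases, and so closes the loop that induced it. The lowest, median and highest levels were 35.5, 44.4 and 66.8 CPM in LFC and 35.2, 54.7 and 71.1 CPM in HFC. HFC 11, HFC 15 and HFC 10 were at or above 61.8 CPM, a level that LFC 8 alone passed in the other group. With edgeR the change was 0.18 ± 0.17 on the log2 scale (SE, adjusted p = 1), and the difference in mean log2 CPM was 0.16 (exact permutation p = 0.359). Without HFC 11 the fitted change was 0.10, and without LFC 8 it was 0.26. DUSP1 had the narrowest range of the set, 2.02-fold.

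**Figure D3:**
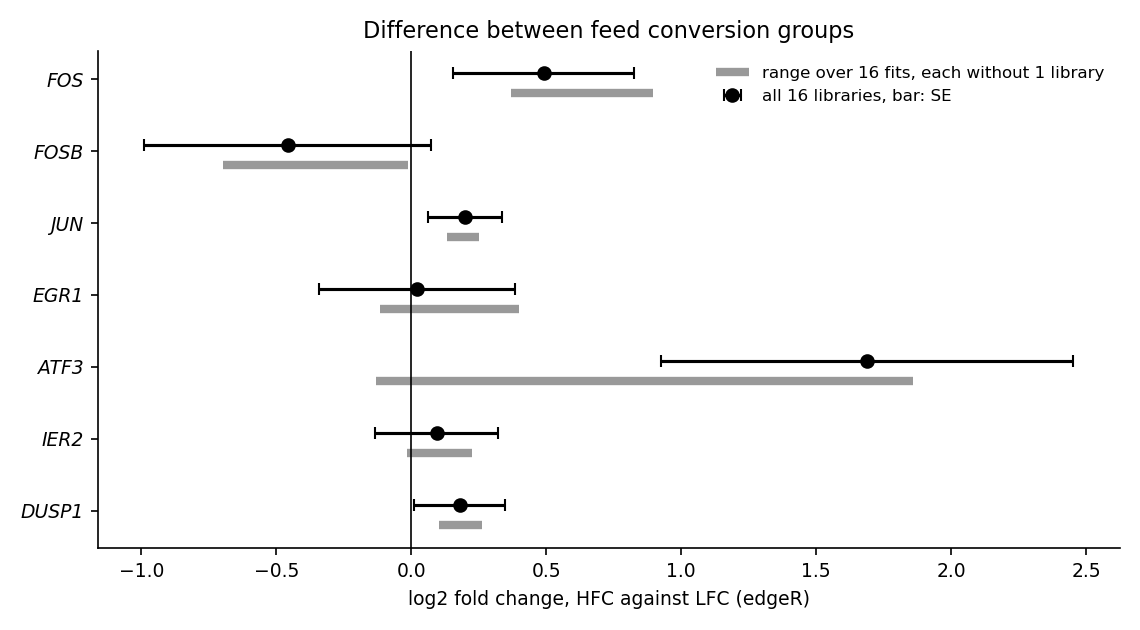
Log2 fold change of HFC against LFC for the 7 immediate early genes tested, with its SE over all 16 libraries (black), and the range over the 16 fits that each left out 1 library (grey). The range of ATF3 runs from -0.13 to 1.86 and crosses 0, as do those of EGR1 and IER2, while FOS, JUN and DUSP1 stay above 0 and FOSB below it.

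The members differed in how much they varied. Between the lowest and highest library DUSP1 varied 2.02-fold, JUN 2.18-fold, IER2 2.60-fold, FOS 5.96-fold and EGR1 9.25-fold. The within-group SD of log2 CPM was 0.79 for EGR1, which exceeded that of 97.3% of the 2707 genes of like abundance (within 1 log2 unit of its mean), and 0.69 for FOS, which exceeded 93.4% of 4624 such genes. That of JUN was 0.27 (36.6%), of DUSP1 0.34 (49.8%) and of IER2 0.45 (44.2%), all close to the middle. ATF3 had 1.28 (90.4%) and FOSB 1.09 (80.9%). When LFC 5, HFC 13 and HFC 14 were left out, EGR1 and FOS moved to 98.2% and 98.0%, DUSP1 to 82.6%, and ATF3 fell to 59.5%. EGR1 and FOS were thus more variable within groups than most genes of their abundance, with or without these libraries. This is a description, with no test.

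Since all members are counted in the same libraries, the ratio of 1 member to another is free of the scaling. FOS reads per JUN read were 0.319, 0.546 and 1.81 in LFC (lowest, median and highest) and 0.473, 0.828 and 1.20 in HFC. EGR1 reads per JUN read were 0.647, 1.28 and 4.17 in LFC and 0.668, 1.41 and 2.11 in HFC, and DUSP1 reads per JUN read were 0.418, 0.550 and 0.847 against 0.466, 0.544 and 0.724. The DUSP1 ratio was the most even of the 3. Levels of different genes are not compared here, since exon lengths were not used.

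Each gilt had its own pattern. The mean of the 7 standardised values (SDs from the mean of the 16 libraries) was lowest in LFC 5 (-0.98), HFC 13 (-0.85) and HFC 16 (-0.69), and highest in HFC 14 (0.88), LFC 8 (0.87) and HFC 15 (0.78). The mean of HFC 14 includes its ATF3 level, 24.6 CPM against at most 2.42 CPM elsewhere. FOSB and EGR1 there were at ranks 5 and 4 from the lowest, while JUN was the highest of all libraries. No mean was taken without ATF3. In LFC 5, FOS, FOSB, JUN and EGR1 were each the lowest of all libraries, but IER2 was the highest. HFC 14 was the shallowest library at 10.97 M counts, while HFC 13 had 11.3 M, LFC 5 13.998 M and HFC 16 18.3 M. The part of depth in these means was not tested. HFC 15 was above the mean for all 7 genes. It is also the library with reads in the JUNB row, which was not among the 7 and whose span lies inside that of HOOK2. LFC 2, LFC 4 and HFC 16 were above the mean for 0 of 7.

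LFC 8 and LFC 3 differed in which members were high. In LFC 8, EGR1 (329 CPM) and FOSB (3.32 CPM) were the highest of the 16 libraries, and DUSP1 (66.8 CPM) was exceeded only by HFC 11, yet FOS was 44.6 CPM, below all HFC libraries but HFC 16. In LFC 3, FOS was the highest of all at 144 CPM, while FOSB had 11 reads, EGR1 125 CPM and IER2 5.48 CPM. LFC 7 had FOS at 30.0 CPM beside 45 reads of FOSB. The same library had the highest level of NR4A1, an orphan nuclear receptor that is also an immediate early gene, at 511 CPM, against 29.8 to 148 CPM in the others. For NR4A1 edgeR gave a log2 fold change of -0.88 ± 0.53 (SE, adjusted p = 0.957), and -0.042 without LFC 7.

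**Figure D4:**
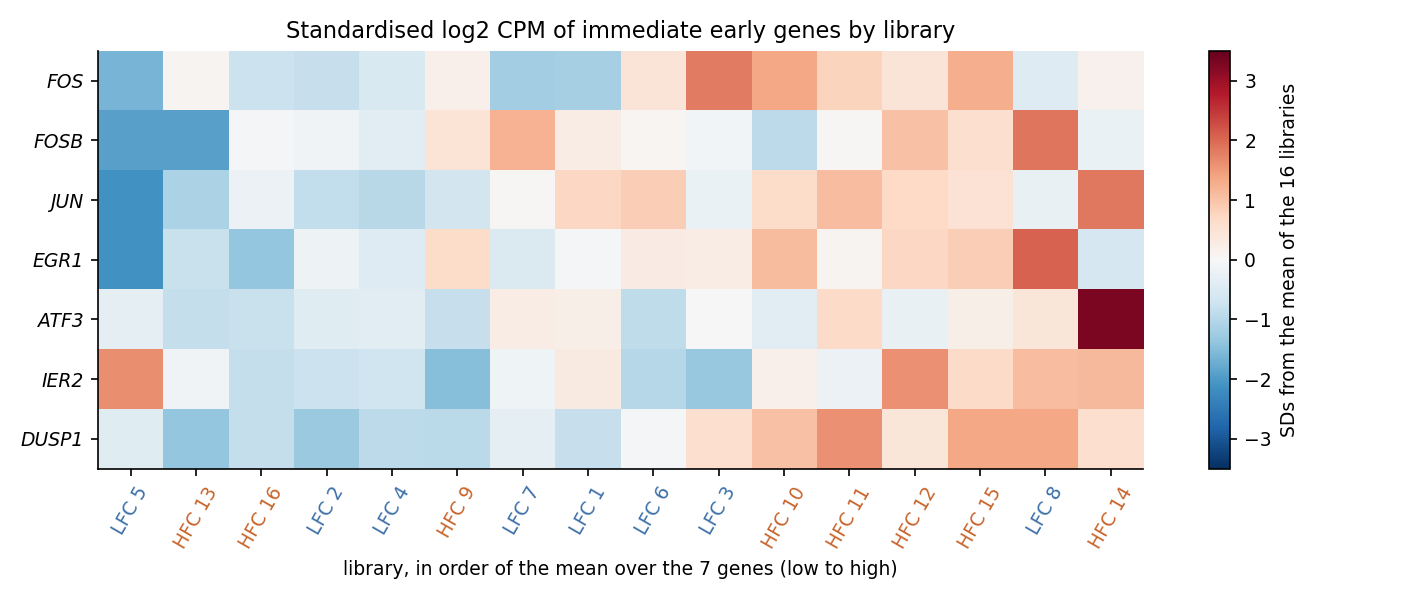
Standardised log2 CPM of 7 immediate early genes (rows) in the 16 libraries (columns, ordered by the mean over the genes), with LFC labels in blue and HFC labels in orange. Blue cells lie below and red cells above the mean of the gene, and LFC 5 at the left end (mean -0.98) is low for 4 genes but the highest for IER2.

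Over the 16 libraries, 20 of the 21 pairs of members had a positive Pearson r of log2 CPM, with a median of 0.40 and a range of -0.20 to 0.65. None of the 21 pairs passed Benjamini-Hochberg adjustment over the pairs (permutation tests with 100000 resamples, smallest adjusted p = 0.0935), so the single pairs are given as descriptions. The strongest were FOSB with EGR1 (r = 0.65, Spearman's rho 0.55), FOS with DUSP1 (0.60, rho 0.57), JUN with ATF3 (0.59, rho 0.46), EGR1 with DUSP1 (0.58, rho 0.57) and JUN with DUSP1 (0.57, rho 0.58). Without the 2 libraries farthest from the median of the first gene, 4 of the 21 pairs changed sign: FOSB with JUN from 0.41 to -0.11, FOS with FOSB from 0.04 to -0.24, EGR1 with ATF3 from 0.02 to -0.13 and FOS with IER2 from -0.20 to 0.21. The r of JUN with ATF3 was 0.32 without LFC 5, HFC 13 and HFC 14. That of FOSB with EGR1 was 0.40 without these libraries, and 0.43 without the 2 libraries farthest from the FOSB median.

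The pairs of DUSP1 held best. Without LFC 5, HFC 13 and HFC 14 they were 0.66 with FOS, 0.64 with EGR1, 0.62 with ATF3, 0.58 with JUN and 0.52 with IER2, and 0.22 with FOSB. Among the 14318 other genes tested, ordered by r with DUSP1 over all 16 libraries, FOS was at rank 13, EGR1 at rank 20 and JUN at rank 24, and without those 3 libraries at ranks 35, 41 and 119. The median r of DUSP1 with all genes was 0.034. ATF3, IER2 and FOSB were at ranks 124, 310 and 378. Ranks were less close for other members. By r with FOS, DUSP1 was at rank 50, EGR1 at 140, JUN at 474, ATF3 at 6362, FOSB at 6860 and IER2 at 11139. The strongest pair ranked low: EGR1 was at rank 1953 by r with FOSB and FOSB at 1185 by r with EGR1, since the median absolute r with all genes was 0.48 for FOSB and 0.45 for EGR1, against 0.14 for DUSP1.

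FOS and IER2 formed the only negative pair over all libraries (r = -0.20). Within LFC it was -0.69 and within HFC 0.36, from 8 libraries each. It was -0.02 without LFC 5, HFC 13 and HFC 14, and LFC 5 had both the lowest FOS and the highest IER2. Within groups the median r over the 21 pairs was 0.37 in LFC (16 positive) and 0.36 in HFC (20 positive), and it was 0.42 in the 13 libraries left without LFC 5, HFC 13 and HFC 14 (19 positive).

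**Figure D5:**
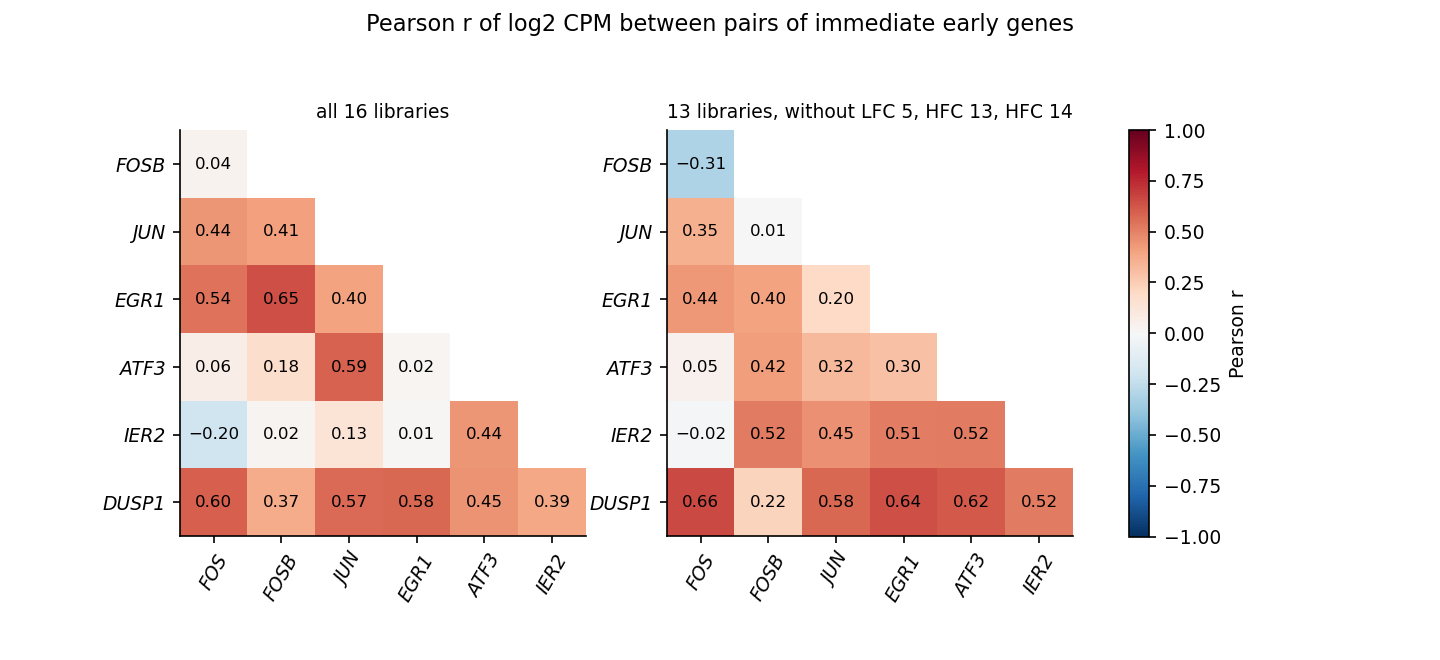
Pearson r of log2 CPM for the 21 pairs of immediate early genes over all 16 libraries (left) and over 13 libraries without LFC 5, HFC 13 and HFC 14 (right), from blue (-1) to red (1). The row of DUSP1 is positive throughout in both panels, while FOS with FOSB moves from 0.04 to -0.31.

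Outside the set, the gene whose pattern was most like the mean of the 7 standardised values was BTG2 (r = 0.80 over 16 libraries, 0.74 without LFC 5, HFC 13 and HFC 14), an antiproliferative gene that is itself induced early by stimulation. Its lowest, median and highest levels were 51.9, 88.0 and 109 CPM in LFC and 54.6, 88.0 and 162 CPM in HFC. LFC 5 and HFC 13 had the lowest BTG2 and HFC 15 the highest. Next came DEDD (0.79), CBFA2T3 (0.78), ZFAND5 (0.77), G3BP1 (0.74), KIF1B (0.72), ATL2 (0.70), ENSSSCG00000037257 (0.70), SYCP2 (0.70) and TPM3 (0.69). All of these r fell without the 3 libraries except that of SYCP2, which stayed at 0.70, and KIF1B fell the most, to 0.45. DEDD and G3BP1 varied little, DEDD between 33.8 and 46.1 CPM and G3BP1 between 86.7 and 115 CPM.

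The wider early response was described with genes listed by function. Of 23 other immediate early transcription factors tested, 9 had a higher and 14 a lower fitted level in HFC (39.1% higher, against 48.4% of all genes), 0 were called, and the median log2 fold change was -0.11. Without LFC 5, 10 were higher and 13 lower (43.5% higher, against 54.6% of all genes). The median was then -0.0051, against 0.031 over all genes. The 3 with an unadjusted p under 0.05 (a level met by 5.82% of all genes) all had the lower level in HFC. NR4A3, a sister of NR4A1, had medians of 4.90 CPM in LFC and 2.08 CPM in HFC (log2 fold change -1.25 ± 0.45 SE, edgeR adjusted p = 0.654), and NR4A2 33.6 and 20.6 CPM (-0.61, adjusted p = 0.753). CREM, whose short product ICER shuts down cAMP-driven transcription, had 36.5 and 27.3 CPM (-0.53 ± 0.21 SE, edgeR adjusted p = 0.749). ID3, an inhibitor of helix-loop-helix factors, had 152 ± 64.9 CPM in LFC and 141 ± 81.8 CPM in HFC (n = 8 each, SD). The study, which used DESeq2, lists NR4A1, NR4A2, NR4A3 (as NOR-1) and FOSL2 among its genes that differed in this breed. It also lists SIK1, DUSP6 and ADM, which are described below. The edgeR fit used here called none of these.

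Of 32 other effectors and feedback genes of the early response, 20 had a higher and 12 a lower fitted level in HFC (62.5% higher, against 48.4% of all genes), 0 were called, and 5 had an unadjusted p under 0.05, as had 5.82% of all genes. Higher in HFC among these 5 were TRIB1, a pseudokinase that marks proteins for degradation (median 8.57 CPM in LFC and 12.2 CPM in HFC, log2 fold change 0.61 ± 0.20 SE, edgeR adjusted p = 0.612), IER5 (0.32, adjusted p = 0.857) and DUSP6, the cytoplasmic ERK phosphatase (0.74, adjusted p = 0.845). DUSP6 had nearly equal medians of 23.8 and 25.9 CPM, and its log2 fold change without each library in turn ran from 0.29 to 0.86. Lower were SIK1, a kinase that silences CREB coactivators (median 52.5 and 22.5 CPM, -0.97, adjusted p = 0.832), and PLK2 (-0.46, adjusted p = 0.821). The medians of PLK2 were nearly equal, 49.0 and 45.8 CPM, and without LFC 8 its value was -0.26. Most abundant were RGS2, which shortens G protein signals, with 337 ± 160 and 341 ± 146 CPM, and BTG1 with 165 ± 20.8 and 166 ± 34.9 CPM (n = 8 each, SD). The list's median log2 fold change was 0.05, or 0.026 without HFC 14. Without LFC 5 it was 0.12, against 0.031 over all genes.

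Upstream of the members, 30 kinases and promoter-binding factors were tested, of which 10 had a higher and 20 a lower fitted level in HFC (33.3% higher, against 48.4% of all genes), 0 were called, and the median log2 fold change was -0.06. LFC 5 was the lowest library for 19 of the 30, and LFC 5 and HFC 13 were each among the lowest 3 for 22. Without HFC 13 the list had 15 genes on each side and a median of 0.0031. Without LFC 5 it had 8 higher and 22 lower (26.7% higher, against 54.6% of all genes). The median was then -0.13, against 0.031 over all genes. CAMK4, a calcium-dependent kinase of CREB, had the smallest p of the list, with medians of 3.25 CPM in LFC and 1.99 CPM in HFC (log2 fold change -0.82 ± 0.32 SE, edgeR adjusted p = 0.728). ELK1, a partner of SRF, came next (-0.28 ± 0.14 SE, edgeR adjusted p = 0.897). The most abundant were MAP2K2, with 178 ± 46.8 CPM in LFC and 171 ± 23.1 CPM in HFC, and PRKACA, with 148 ± 38.5 and 138 ± 38.5 CPM (n = 8 each, SD).

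Genes of other stress responses were read beside the immediate early genes. Of 9 genes induced by glucocorticoids, 5 had a higher and 4 a lower fitted level in HFC (55.6% higher, against 48.4% of all genes). An unadjusted p under 0.05 was met by 0 of them. FKBP5 had 193 ± 34.9 CPM in LFC and 210.2 ± 72.8 CPM in HFC, PER1 201 ± 59.9 and 178 ± 71.9 CPM, SGK1 16.1 ± 2.17 and 18.8 ± 2.97 CPM, and ERRFI1 20.7 ± 3.28 and 18.4 ± 3.36 CPM (n = 8 each, SD). Of 8 heat shock genes, 4 were on each side (50% higher, against 48.4% of all genes) and again 0 had an unadjusted p under 0.05. The split moved with single libraries. Without HFC 14 it was 1 higher and 7 lower (12.5% higher, against 48.0% of all genes). Without LFC 5, and likewise without HFC 16, it was 5 higher and 3 lower (62.5% higher, against 54.6% and 47.9% of all genes). The chaperones HSPA8 and HSP90AA1 had 2266 ± 478 and 2062 ± 186 CPM in LFC and 1984 ± 289 and 1850 ± 309 CPM in HFC.

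Of 11 genes induced by low oxygen, 9 had a higher and 2 a lower fitted level in HFC (81.8% higher, against 48.4% of all genes), with a median log2 fold change of 0.25 and 0 called. An unadjusted p under 0.05 was met by 3 of the 11, all higher in HFC, and by 5.82% of all genes. The latter were 834 genes, of which 615 were higher in HFC. HFC 14 was the highest library for 4 of the 11 and among the highest 3 for 8, and HFC 16 was among the highest 3 for 6. Without HFC 14 the split was again 9 to 2, with a median of 0.18. ADM, which encodes the vasodilator adrenomedullin, had medians of 1.75 CPM in LFC and 9.89 CPM in HFC (log2 fold change 2.52 ± 0.90 SE, edgeR adjusted p = 0.654), and between 1.84 and 3.22 when each library was left out. LDHA, the muscle form of lactate dehydrogenase, had 3.53 ± 1.03 (SE, edgeR adjusted p = 0.612), but its medians were 30.3 and 36.4 CPM, and without HFC 14 the value was 0.47. HK2, a hexokinase, had 1.36 (adjusted p = 0.708), and 0.92 without HFC 14. BNIP3, a mitophagy receptor, had 114 ± 49.4 CPM in LFC and 135 ± 39.1 CPM in HFC (n = 8 each, SD).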

How the data were processed

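The authors deposited a table of raw counts per gene, 1 column per pituitary library, from single-end reads of non-stranded TruSeq libraries (300 ng of total RNA). The labels name FastQC, STAR, RSEM and DESeq2 with the build Sscrofa11.1, and the methods add Flexbar and Bowtie 2. How the whole-number counts were made is not given in the sources used here. The labels give an RNA integrity number above 8.0, the methods a lower bound. A second deposited table holds the authors' group means, folds and p-values, and only its gene symbols and positions were used. Symbols came from it (10091 genes) or from Ensembl pig names (5454), and 10335 genes had none.

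Counts were fitted with edgeR 4.0.16 in R 4.3.3 (TMM scaling, filterByExpr on group, which removed 11561 genes, glmQLFit and glmQLFTest, Benjamini-Hochberg adjustment over all genes tested), after the code had been tested on simulated data. An adjusted p printed as 1 was 0.99992. CPM use TMM-scaled library sizes, log2 CPM a prior count of 2, and all fold changes are HFC over LFC. Exact permutation tests of single genes used scipy 1.17.1 and permutation tests of correlations used numpy 2.4.6, all two-sided. JUNB had reads in 1 library, so 21 pairs were correlated in place of the 28 planned. The immediate early genes and all lists were chosen with earlier results of these data known. Named from each other list were the 2 genes of largest mean CPM and the 2 of smallest p, from the most alike genes the first 10 by r, and, after their values were seen, the other list genes with an unadjusted p under 0.05, the genes beside JUNB and EGR1, and the muscle genes. Alternatives were DESeq2 1.42.0, other scalings, filters and prior counts, and leaving out libraries. Intervals cover counting error only. No sequences are shown, because no genome or sequence table was used here.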

Additional observations from a re-analysis of the deposited data

Results flagged for a closer look

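In the 15 checks of a gene within a group for a library far from the others (by Dixon's criterion, which chance meets in about 1 group in 20), 2 libraries stood out. JUNB in HFC 15 was at 3.74 on the log2 CPM scale, with 210 reads, while the other 7 HFC libraries had none. With those 7 at the same value, any read at all would have met the criterion, so the rate above does not hold for JUNB. ATF3 in HFC 14 was at 4.63 on the log2 CPM scale, against -0.52 to 1.34 in the other 7 HFC libraries. HFC 14 is the library with 56669 CPM of skeletal muscle transcripts, and their part in the ATF3 level was not tested.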

How the results depend on the processing

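No immediate early gene was called under any alternative. The number of genes called moved from 0 to 20 with DESeq2, which tested 19572 genes, and to 5 when it was run on the 14319 kept by the filter (added after the data were seen), so both the tool and the filter changed the count. It was 0 under RLE and total count scaling, without the filter, without the fold minimum, and in each fit without some libraries. The fold change of ATF3 turned to -0.13 in both DESeq2 runs and to -0.069 without LFC 5, HFC 13 and HFC 14, and its difference in mean log2 CPM to -0.13. With each library left out in turn, log2 fold changes ran from -0.12 to 0.40 for EGR1, from -0.015 to 0.23 for IER2 and from -0.13 to 1.86 for ATF3, and differences in mean log2 CPM from 0.53 to 0.90 for FOS, -0.55 to 0.029 for FOSB, -0.085 to 0.37 for EGR1 and -0.21 to 0.53 for ATF3. Those of FOS passed 0.05 in 2 of 16 such tests. Of 63 correlations recomputed under RLE scaling, centring and without the 3 libraries, 3 changed sign: FOS with FOSB to -0.31 without the 3 libraries, and, centred on group means, FOS with ATF3 to -0.0017 and EGR1 with IER2 to -0.0019. Without the 2 farthest libraries 4 of 21 did, and Spearman's rho of 2 pairs with r near 0, FOSB with IER2 (-0.0059) and EGR1 with IER2 (-0.0029), was negative. Of the genes named from other lists, whose alternatives were added after the data were seen, BTG1 lay at 0 and changed sign to -0.0022 (RLE), -0.019 (total counts), -0.015 (no filter), -0.0042 (DESeq2) and -0.056 (without the 3 libraries). Without each library in turn ID3 ran from -0.33 to 0.088, RGS2 from -0.13 to 0.26, BTG1 from -0.076 to 0.051 and MAP2K2 from -0.098 to 0.074. No paired analysis was possible because the groups share no replicate numbers. FOSB and ATF3, with few reads, have the least precise values.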
